A study of Rattus norvegicus with 15 samples.

Results

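Knee articular cartilage of youth rats (stage T1) was compared with that of newborn rats (stage T0) across every gene measured. The comparison rests on 6 of the 15 arrays of the series, 3 of each stage, chosen by their stage labels. All animals were Sprague-Dawley rats, an outbred laboratory strain, and the cartilage came from the right knee. The labels state no genotype, treatment, age in days or sex. The other 9 arrays held cartilage of adult rats (T2) and of elderly rats at an early (T3) and a latter stage (T4). The series follows coding and non-coding transcripts over these stages. The labels number the samples of a stage as biological replicates, 1 knee each. The p-values rest on the spread between samples of the same stage, pooled over all 15 arrays. For T1 replicate 3 the source name reads adult, while 3 other labels, the stage among them, read youth, and youth was used. Its mean correlation over all probe sets was 0.977 with the other T1 arrays, 0.963 with the T2 arrays and 0.933 with the T0 arrays. For T1 replicates 1 and 2 the mean was 0.959 with the T2 arrays and 0.929 with the T0 arrays. The mean correlation was 0.975 within T1, 0.977 within T0 and 0.93 between the stages.

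At birth the ends of the rat femur and tibia are cartilage throughout. Part of this tissue is the permanent layer that will cover the joint, and part is a temporary model that is later invaded by vessels, resorbed and replaced by bone with marrow, in what is called secondary ossification. Chondrocytes, the cells of cartilage, make type II collagen and aggrecan. Those that enlarge before the tissue mineralizes, the hypertrophic chondrocytes, make type X collagen. Bone marrow forms red cells, platelets, granulocytes and B cells. The muscles and tendons that cross the joint insert close to it, and growth before and shortly after birth is driven in part by a set of imprinted genes, which are transcribed from the copy of 1 parent.

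The tissue label was checked against 8 defining cartilage genes, of which 7 were measured and Comp was not. All values are log2 signals from the authors' RMA table, so a difference of 1 is a change of 2-fold. Col2a1, the type II collagen chain, was at 12.47, 12.55 and 12.48 in youth, against 12.36, 12.30 and 12.41 in newborn cartilage. Acan, the core protein of aggrecan, was at 11.14, 11.33 and 11.04 in youth, against 11.71, 11.50 and 11.82 in newborn cartilage. These 2 genes and Col9a1, Matn3 and Hapln1 lay above 9 on all 6 arrays. Matn1, another of the 7, was at 7.31, 7.86 and 8.11 in youth, against 10.33, 10.35 and 10.30 in newborn cartilage. It was called as lower in youth (log2 change -2.57, SE 0.23, limma adjusted p = 7.99e-06). Sox9, the regulator of chondrocyte identity, was low in both stages, at 5.31, 5.68 and 5.34 in youth, against 5.45, 5.25 and 5.46 in newborn cartilage. Its arrays overlapped between the stages. Neither Col2a1 (log2 change 0.14, SE 0.56, limma adjusted p = 0.982) nor Acan (log2 change -0.51, SE 0.47, limma adjusted p = 0.781) nor Sox9 (log2 change 0.06, SE 0.18, limma adjusted p = 0.977) passed the test. Background was judged from 1185 olfactory receptor genes, which serve odour sensing in the nose. Their 95th percentile lay between 4.81 and 4.92 on the 6 arrays. A gene below that value on its own array is called dim here, since its level there was not set apart from background.

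In all, 2772 of 36685 probe sets (7.56%) changed at a limma adjusted p under 0.05, of which 1472 rose and 1300 fell from the newborn to the youth stage. Taken as 1 probe set per gene, 1140 of 18166 genes rose (6.28%) and 895 fell (4.93%). These shares are the background against which each list below is read. The lists were chosen with earlier results of these data known, so their counts describe them and are no test. A change of at least 4-fold was seen in 309 of the genes that rose and 181 of those that fell, and a change of at least 16-fold in 33 and 12. The 3 youth and 3 newborn arrays did not overlap for 7682 genes (42.3%), so separation alone is common here. The fit used all 15 arrays to estimate the spread, the T3 and T4 arrays included, which were known from earlier results to spread more. An SE thus holds more than the spread within T0 and T1. A fit to the 6 arrays alone called 11.0% of genes up and 9.58% down, and its median SE was 0.15 against 0.25. Without T0 replicate 2 the number of probe sets called was 1796, of which 970 rose and 826 fell, and without T1 replicate 3 it was 1884, of which 1023 rose and 861 fell. With T1 replicate 3 placed in T2 the number called was 1777, of which 958 rose and 819 fell. The median change over all genes was -0.03. For every gene given array by array below, youth and newborn arrays did not overlap. Where a gene was dim in 1 stage, its level there is known only to lie below the bound.

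**Figure D1:**
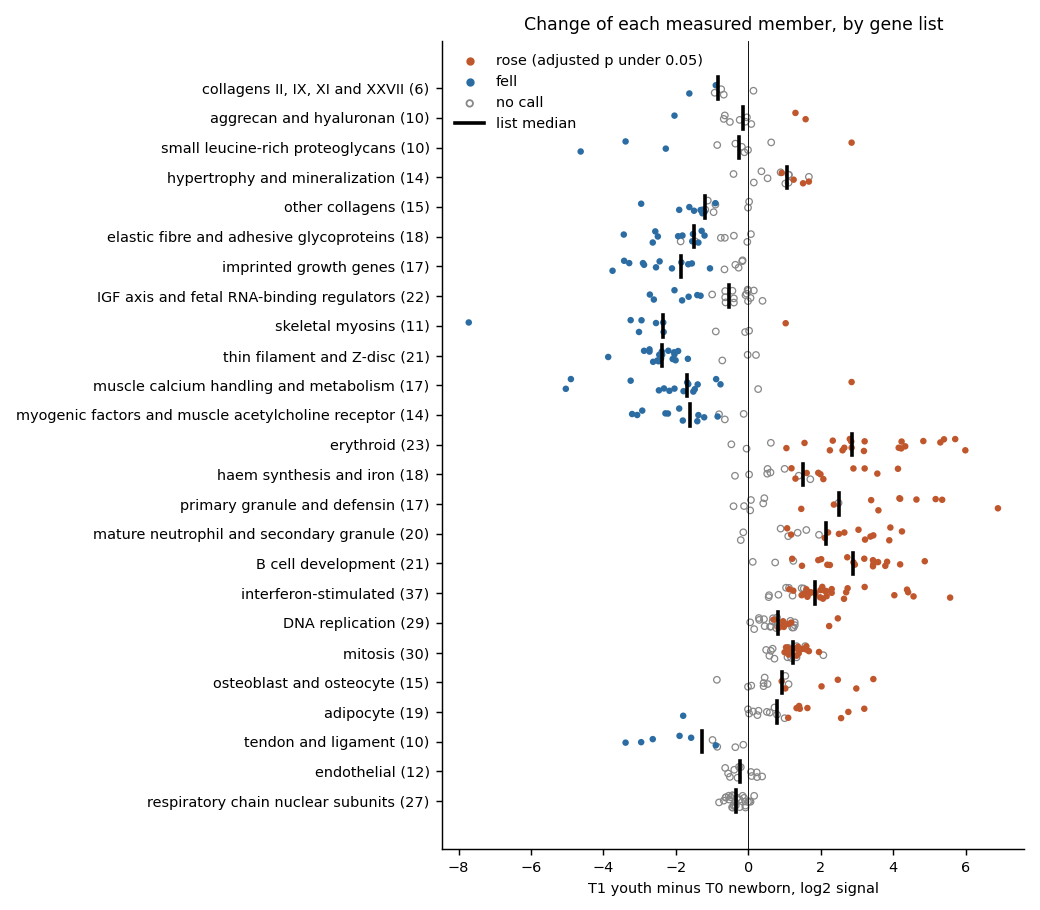
Each point is 1 gene of a list at its change from newborn (T0) to youth (T1) on the log2 scale, with the number of measured members in parentheses. Filled points passed the test and the black bar is the list median. Muscle, imprinted and elastic fibre genes lie to the left, and erythroid, granulocyte, B cell and interferon-stimulated genes to the right.

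Some cartilage matrix genes moved far, and in opposite directions. Matn1, the matrilin that binds collagen and aggrecan in immature cartilage, was at 7.31, 7.86 and 8.11 in youth, against 10.33, 10.35 and 10.30 in newborn cartilage. Epyc, a small leucine-rich proteoglycan known from growth cartilage, was at 4.97, 4.47 and 4.45 in youth, against 9.39, 9.09 and 9.31 in newborn cartilage. The stages were far apart for both, with changes of -2.57 (SE 0.23, limma adjusted p = 7.99e-06) for Matn1 and -4.63 (SE 0.22, limma adjusted p = 3.45e-08) for Epyc, and the youth values of Epyc were dim on 2 of 3 arrays. Chad, chondroadherin, through which chondrocytes bind collagen, went the other way with 11.0, 11.56 and 11.43 in youth, against 8.42, 8.30 and 8.87 in newborn cartilage (log2 change 2.80, SE 0.49, limma adjusted p = 0.00192). Omd, osteoadherin, a proteoglycan known from bone matrix, was at 9.29, 9.92 and 9.98 in youth, against 6.72, 6.65 and 7.27 in newborn cartilage (log2 change 2.85, SE 0.44, limma adjusted p = 0.000749). Kera, keratocan, known from cornea and tendon, fell by 10.5-fold, with youth arrays at 6.83, 7.29 and 5.38 and newborn arrays at 10.08, 9.76 and 9.85 (limma adjusted p = 0.000576). T1 replicate 3 was its lowest array.

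Among 6 collagen genes of types II, IX, XI and XXVII, none rose and 2 fell, Col9a2 (log2 change -1.63, SE 0.23, limma adjusted p = 0.000322) and Col11a2 (log2 change -0.90, SE 0.21, limma adjusted p = 0.0158). The Col11a2 call was lost when T0 replicate 2, T0 replicate 3 or T1 replicate 2 was left out (adjusted p between 0.0544 and 0.0857). Their summed signal, the sum of unlogged values over the list, ran from 9130 to 9420 in youth and 11300 to 12500 in newborn cartilage. Of 10 aggrecan and hyaluronan genes 2 rose and 1 fell. Vcan, versican, the large proteoglycan of immature and loose matrices, was at 8.10, 7.56 and 7.98 in youth, against 9.74, 10.09 and 9.94 in newborn cartilage (log2 change -2.04, SE 0.30, limma adjusted p = 0.000487). Cemip, which takes part in breaking down hyaluronan, was at 7.35, 6.80 and 6.89 in youth, against 5.23, 5.28 and 5.80 in newborn cartilage (log2 change 1.58, SE 0.27, limma adjusted p = 0.00159). Hyal1, a lysosomal hyaluronidase, rose by 1.30 (SE 0.32), a call lost when any single array of the 6 was left out (adjusted p between 0.0523 and 0.0798). Of 10 measured genes of the matrilin, COMP and small secreted cartilage protein list, Comp itself not among them, 1 rose and 1 fell, Chad and Matn1 above. Of 10 small leucine-rich proteoglycan genes 1 rose and 3 fell; their median change was -0.27, and 0.04 after quantile normalization. Aspn, asporin, was the other that fell (log2 change -2.28, SE 0.60, limma adjusted p = 0.0303), and its call was lost when any single array other than T1 replicate 1 was left out (adjusted p between 0.0835 and 0.13). The Col11a2 call ended with T1 replicate 3 placed in T2. The calls of Hyal1 and Aspn ended with T1 replicate 3 placed in T2 or after quantile normalization.

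Of 9 genes of the joint surface 2 rose and 1 fell, and 4 rose in a fit to the 6 arrays alone. Prg4, which encodes the lubricant lubricin, was at 10.81, 10.96 and 10.59 in youth, against 8.67, 9.14 and 9.73 in newborn cartilage. The arrays did not overlap, yet the change of 1.61 (SE 0.51) did not pass the test (limma adjusted p = 0.081). Prg4 did pass in 3 of 16 alternatives. Vit, vitrin, a matrix protein with von Willebrand domains, was at 7.81, 8.08 and 7.92 in youth, against 6.58, 6.23 and 6.31 in newborn cartilage (log2 change 1.57, SE 0.33, limma adjusted p = 0.00784). Thbs4, a thrombospondin of tendon and cartilage, fell (log2 change -1.58, SE 0.32, limma adjusted p = 0.00574). Cilp2 rose by 0.97 (SE 0.26), a call lost when any single array other than T0 replicate 1 was left out (adjusted p between 0.0934 and 0.144). Of 11 SOX and RUNX factors and their partners 1 changed: Sox5, which acts beside Sox9 in mouse cartilage, was at 6.07, 6.24 and 6.20 in youth, against 6.93, 7.22 and 7.74 in newborn cartilage (log2 change -1.13, SE 0.23, limma adjusted p = 0.00521). The Cilp2 call ended with T1 replicate 3 placed in T2 or after quantile normalization.

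Hypertrophy and mineralization genes had a positive change in 13 of 14 members, of which 4 passed the test and none fell (median 1.06). Col10a1, the type X collagen of hypertrophic chondrocytes, was at 11.09, 10.86 and 10.18 in youth, against 9.05, 8.59 and 9.48 in newborn cartilage (log2 change 1.67, SE 0.38, limma adjusted p = 0.0114). Phospho1, a phosphatase that starts mineral formation, was at 7.87, 8.10 and 7.93 in youth, against 6.33, 6.60 and 7.21 in newborn cartilage (log2 change 1.25, SE 0.27, limma adjusted p = 0.00865). Ankh, which moves pyrophosphate out of cells, rose by 1.51 (SE 0.37), and Sp7, osterix, a factor of bone-forming cells, by 0.92 (SE 0.26). Mmp13, the collagenase of hypertrophic cartilage and bone, was at 11.49, 11.46 and 11.63 in youth, against 10.40, 8.74 and 10.44 in newborn cartilage, without passing the test (log2 change 1.67, SE 0.67, limma adjusted p = 0.202). It did pass in 4 of 16 alternatives. T0 replicate 2 was the lowest newborn array for Mmp13 and Col10a1. The count of 4 was 1 without T0 replicate 1, 1 without T0 replicate 2, 1 without T1 replicate 1, 1 without T1 replicate 2 and 2 without T1 replicate 3, and over the alternatives it lay between 1 with T1 replicate 3 placed in T2 and 9 with array weights. Genes of osteoblasts and osteocytes moved beside them and share Sp7; their values are given below, and their part in the result was not tested. The Phospho1 call was lost when T0 replicate 1 was left out (adjusted p 0.0533). The Col10a1 call was lost when T0 replicate 2, T1 replicate 1 or T1 replicate 2 was left out (adjusted p between 0.0503 and 0.0708). The Ankh call was lost when any single array other than T0 replicate 3 was left out (adjusted p between 0.0589 and 0.092). The Sp7 call was lost when any single array other than T0 replicate 3 was left out (adjusted p between 0.109 and 0.192). The calls of Phospho1, Ankh and Sp7 ended with T1 replicate 3 placed in T2 or after quantile normalization.

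Of 15 genes of hedgehog, PTHrP, FGF and CNP signalling, the signals that pace growth cartilage, none rose and 4 fell (median -0.71). The transcription factors Gli2 and Gli3, which carry the hedgehog signal, both fell. Gli3 was at 6.22, 6.28 and 6.25 in youth, against 8.09, 7.93 and 7.90 in newborn cartilage (log2 change -1.72, SE 0.25, limma adjusted p = 0.000427). Gli2 was at 6.01, 6.28 and 6.33 in youth, against 7.72, 7.69 and 7.57 in newborn cartilage (log2 change -1.45, SE 0.20, limma adjusted p = 0.000254). Npr3, the receptor that clears CNP, fell by 1.29 (SE 0.21) on the log2 scale and was dim on all 3 youth arrays. Fgf9, a growth factor ligand, stood at -1.01 (SE 0.25) and was dim there too; its call was lost when T0 replicate 2, T1 replicate 1 or T1 replicate 2 was left out (adjusted p between 0.0726 and 0.136). A fit to the 6 arrays alone called 8 of the 15 as fallen. The Fgf9 call ended with T1 replicate 3 placed in T2.

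**Figure D2:**
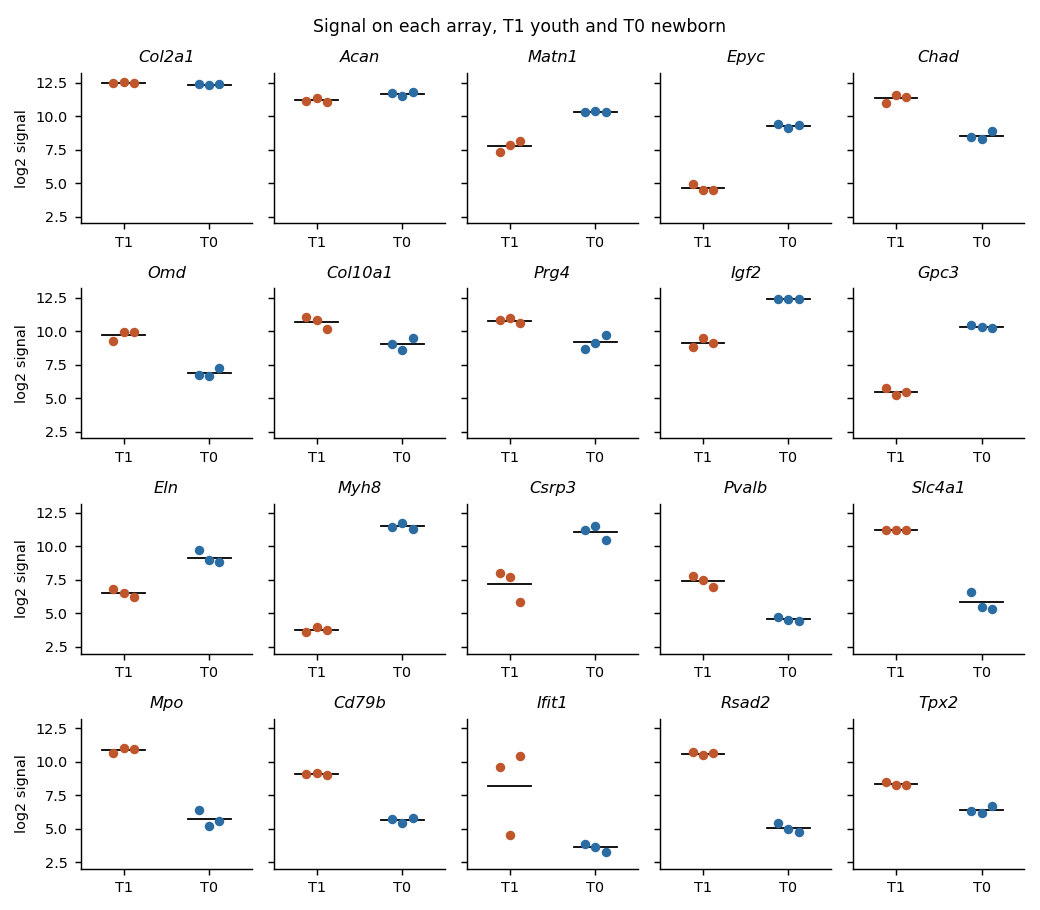
Log2 signal of 20 genes on each of the 3 youth (T1, left) and 3 newborn (T0, right) arrays, with the mean as a line. Col2a1 lies between 12.30 and 12.55 in both stages, Myh8 lies at 4.02 or below in youth and at 11.33 or above in newborn cartilage, and Ifit1 is low on T1 replicate 2.

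Other collagen genes fell in most cases, and genes that modify collagen in fewer. Of 15 other collagen genes, which include the fibrillar, basement membrane and microfibrillar types, none rose and 9 fell (median -1.21). Col14a1, a collagen that coats fibrils in tendon and skin, was at 8.01, 7.89 and 7.49 in youth, against 10.98, 10.67 and 10.62 in newborn cartilage (log2 change -2.96, SE 0.48, limma adjusted p = 0.00104). Col15a1 of the basement membrane zone fell by 1.91 (SE 0.33), Col5a3 by 1.5 (SE 0.24), Col6a2 by 1.32 (SE 0.22), and the basement membrane chains Col4a1 and Col4a2 decreased by 1.27 (SE 0.22) and decreased by 1.21 (SE 0.22). Of 23 genes that modify collagen none rose and 7 fell. P4ha3, a prolyl hydroxylase subunit, stood apart with 6.93, 6.73 and 6.74 in youth, against 9.96, 9.72 and 9.79 in newborn cartilage (log2 change -3.02, SE 0.20, limma adjusted p = 6.54e-07). Loxl3, a crosslinking enzyme, fell by 1.45 (SE 0.26), P3h3 of the prolyl 3-hydroxylase family by 0.86 (SE 0.18) and its relative P3h4 by 1.2 (SE 0.26). The count of 7 was 4 without T0 replicate 1, 4 without T0 replicate 2, 4 without T0 replicate 3, 4 without T1 replicate 2 and 4 without T1 replicate 3, and 14 in a fit to the 6 arrays alone. With T1 replicate 3 placed in T2 the counts were 5 for other collagens and 3 for modifying enzymes. Tendon genes were lower on the same arrays, with a list mean of 7.06 to 7.62 in youth and 8.89 to 8.99 in newborn cartilage, as were thin filament genes of muscle, at 6.64 to 7.70 and 8.99 to 9.64. Their part in the matrix result was not tested. The Col4a1 call ended with T1 replicate 3 placed in T2. The P3h4 call ended with T1 replicate 3 placed in T2 or after quantile normalization.

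Elastic fibre and adhesive glycoprotein genes fell in 11 of 18 cases and none rose (median -1.5). Their summed signal ran from 5620 to 7310 in youth and 16400 to 17700 in newborn cartilage. Mfap4, which binds elastic fibres, was at 7.38, 7.19 and 6.85 in youth, against 10.81, 10.52 and 10.41 in newborn cartilage, a 10.9-fold fall (log2 change -3.44, SE 0.39, limma adjusted p = 6.47e-05). Eln, elastin itself, was at 6.84, 6.50 and 6.25 in youth, against 9.70, 9.0 and 8.80 in newborn cartilage (log2 change -2.64, SE 0.28, limma adjusted p = 3.59e-05). The microfibril genes Mfap5 (log2 change -2.50, SE 0.43, limma adjusted p = 0.00168) and Mfap2 (log2 change -1.94, SE 0.26, limma adjusted p = 0.00024) and the fibulins Fbln1 (log2 change -1.55, SE 0.20, limma adjusted p = 0.000177) and Fbln2 (log2 change -1.82, SE 0.24, limma adjusted p = 0.000235) fell as well. All 6 of these genes kept their call in every alternative run.

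Cell surface and sulfated glycan genes gave fewer calls. Of 9 glypican and syndecan genes none rose and 2 fell. Gpc3, a glypican that restrains growth in the embryo, was at 5.78, 5.23 and 5.49 in youth, against 10.45, 10.34 and 10.27 in newborn cartilage, a 28.9-fold fall (log2 change -4.85, SE 0.27, limma adjusted p = 1.43e-07). Gpc4, its relative, was at 6.35, 6.46 and 6.20 in youth, against 8.42, 8.76 and 8.17 in newborn cartilage (log2 change -2.12, SE 0.22, limma adjusted p = 3.23e-05). Of 22 genes of chondroitin sulfate synthesis 1 rose and 2 fell, against 8 that fell in a fit to the 6 arrays alone. Chst13, a chondroitin 4-sulfotransferase, rose (log2 change 1.15, SE 0.19, limma adjusted p = 0.00145). Dse, which turns chondroitin into dermatan sulfate, fell by 1.08 (SE 0.23), and Ugdh, which makes the UDP-glucuronic acid used for glycan chains, by 1.14 (SE 0.26). The Ugdh call was lost when T1 replicate 3 was left out (adjusted p 0.0507). Of 24 matrix proteases and inhibitors 1 rose and 2 fell. The riser was Mmp8, a collagenase stored in neutrophils, at 9.79, 9.13 and 9.69 in youth, against 7.02, 4.71 and 7.21 in newborn cartilage (log2 change 3.22, SE 0.82, limma adjusted p = 0.0243); T0 replicate 2 was its lowest array and the call was lost when T0 replicate 2, T1 replicate 1, T1 replicate 2 or T1 replicate 3 was left out (adjusted p between 0.0519 and 0.137). Adamts12, a metalloprotease that cleaves COMP, fell (log2 change -1.16, SE 0.23, limma adjusted p = 0.00415), and Adamts1 of the same family stood at -1.18 (SE 0.30). The Adamts1 call was lost when any single array other than T1 replicate 2 was left out (adjusted p between 0.0538 and 0.126). The calls of Dse, Adamts12 and Mmp8 ended with T1 replicate 3 placed in T2. The Adamts1 call ended with T1 replicate 3 placed in T2 or after quantile normalization.

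Imprinted growth genes fell in most cases. All 17 measured members had a negative change, 12 fell at the threshold, and the median was -1.85. Their summed signal ran from 2500 to 2870 in youth and 16100 to 16300 in newborn cartilage. Gnas, which encodes the stimulatory G protein alpha subunit, was at 6.95, 7.15 and 6.61 in youth, against 10.51, 10.30 and 10.19 in newborn cartilage (log2 change -3.43, SE 0.35, limma adjusted p = 2.15e-05). Ndn, necdin, a MAGE family protein, was at 5.73, 5.31 and 5.23 in youth, against 8.75, 8.13 and 8.12 in newborn cartilage (log2 change -2.91, SE 0.32, limma adjusted p = 4.53e-05). Zim1, an imprinted zinc finger gene, was at 6.76, 7.21 and 6.72 in youth, against 9.49, 9.68 and 10.15 in newborn cartilage (log2 change -2.88, SE 0.33, limma adjusted p = 6.31e-05). Dlk1, a Notch-related membrane protein of immature cells, was at 6.79, 7.35 and 7.42 in youth, against 11.06, 10.98 and 10.77 in newborn cartilage. Igf2, the fetal growth factor, was at 8.80, 9.46 and 9.11 in youth, against 12.40, 12.39 and 12.44 in newborn cartilage, and Plagl1, a zinc finger factor linked to the imprinted network in mouse, at 8.62, 8.85 and 8.67 in youth, against 11.24, 11.29 and 11.27 in newborn cartilage. Every one of these 6 genes had non-overlapping arrays and kept its call in every alternative run. Zdbf2, another imprinted gene, was among the 25 largest falls, with youth arrays at 4.39, 4.31 and 4.32, all dim, and newborn arrays at 7.88, 8.40 and 7.67 (log2 change -3.64, SE 0.25, limma adjusted p = 8.93e-07). Thin filament genes of muscle and tendon genes were lower on the same arrays, with list means of 6.64 to 7.70 and 7.06 to 7.62 in youth, against 8.99 to 9.64 and 8.89 to 8.99 in newborn cartilage. Their part in the results on imprinted genes, the IGF axis and the microRNA genes between Dlk1 and Dio3, given next, was not tested.

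In the IGF axis, in which IGF1 and IGF2 act through the receptor encoded by Igf1r and are held by binding proteins, none of 22 genes rose and 7 fell, on the arrays where the muscle and tendon lists were lower too. Igf1 was at 8.82, 8.81 and 8.69 in youth, against 10.53, 10.35 and 10.40 in newborn cartilage (log2 change -1.65, SE 0.27, limma adjusted p = 0.00116). Igf1r was at 7.54, 7.46 and 7.62 in youth, against 9.04, 9.06 and 8.73 in newborn cartilage (log2 change -1.41, SE 0.30, limma adjusted p = 0.00877). Igfbp3, a binding protein, was at 7.0, 6.89 and 6.46 in youth, against 9.63, 9.52 and 9.38 in newborn cartilage (log2 change -2.72, SE 0.24, limma adjusted p = 6.92e-06). Pappa2, a protease that frees IGFs from binding proteins, fell (log2 change -1.83, SE 0.29, limma adjusted p = 0.000938). The fetal RNA-binding regulator Igf2bp2 was at 5.55, 5.94 and 5.66 in youth, against 8.31, 8.33 and 8.33 in newborn cartilage (log2 change -2.61, SE 0.25, limma adjusted p = 1.19e-05). Hmga2, a chromatin protein of growing tissues, was dim on all 3 youth arrays (4.38, 3.89 and 4.39) and at 6.38, 6.25 and 6.13 in newborn cartilage (log2 change -2.04, SE 0.20, limma adjusted p = 1.48e-05). Ligand, receptor, protease and binding protein genes were thus all among those that fell.

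Growth factor and morphogen lists were mixed. Among 12 TGF-beta genes the ligands went opposite ways: Tgfb1 was at 8.76, 8.81 and 9.01 in youth, against 7.76, 7.52 and 7.95 in newborn cartilage (log2 change 1.11, SE 0.19, limma adjusted p = 0.00162), while Tgfb2 stood at -1.13 (SE 0.32), a call lost when any single array of the 6 was left out (adjusted p between 0.0884 and 0.171). Tgfbi, an adhesive protein induced by TGF-beta, fell (log2 change -1.68, SE 0.26, limma adjusted p = 0.000851). Of 23 BMP and GDF genes 1 rose and 2 fell, Bmp3 at 1.31 (SE 0.33), Fstl1, a follistatin-like protein, at -1.33 (SE 0.23) and the BMP antagonist Chrd at -0.88 (SE 0.21). The Bmp3 call was lost when T0 replicate 1, T0 replicate 2, T1 replicate 2 or T1 replicate 3 was left out (adjusted p between 0.0673 and 0.119). Among 19 Wnt genes 3 rose and 3 fell, and secreted antagonists were on both sides. Dkk1 was at 7.68, 8.02 and 7.65 in youth, against 5.86, 4.78 and 5.59 in newborn cartilage (log2 change 2.37, SE 0.39, limma adjusted p = 0.00134). Sfrp5 was at 8.23, 8.07 and 8.69 in youth, against 6.01, 5.99 and 5.87 in newborn cartilage (log2 change 2.37, SE 0.25, limma adjusted p = 3.59e-05). Sfrp2 stood at -1.80 (SE 0.43), Dkk3 at -1.30 (SE 0.32) and Dkk2 at -0.99 (SE 0.20), the last dim on all youth arrays. The Sfrp2 call was lost when T0 replicate 1, T0 replicate 2, T1 replicate 2 or T1 replicate 3 was left out (adjusted p between 0.0545 and 0.0748) and the Dkk3 call when T0 replicate 1, T0 replicate 2, T1 replicate 2 or T1 replicate 3 was left out (adjusted p between 0.0582 and 0.0923). Of 14 Notch genes 1 rose and 1 fell, Mfng, a fringe enzyme that puts sugars on Notch receptors, at 0.95 (SE 0.23) and Hes1, a repressor that Notch induces, at -0.82 (SE 0.20). Both counts were 0 without T0 replicate 2. Of 11 hindlimb Hox and Tbx genes none was called. Tbx4, the hindlimb factor with the largest change of that list, stood at -0.75 (SE 0.24, limma adjusted p = 0.0833). In limma 0 of the 11 passed, and a fit to the 6 arrays alone called 3 as fallen. The Chrd call was lost when T0 replicate 1, T0 replicate 2 or T1 replicate 2 was left out (adjusted p between 0.0615 and 0.0973). The Mfng call was lost when any single array other than T0 replicate 1 was left out (adjusted p between 0.0557 and 0.0986). The Hes1 call was lost when T0 replicate 2, T0 replicate 3, T1 replicate 2 or T1 replicate 3 was left out (adjusted p between 0.0772 and 0.102). The calls of Fstl1 and Sfrp2 ended with T1 replicate 3 placed in T2. The Tgfb2 call ended with T1 replicate 3 placed in T2, with median centring or after quantile normalization. The calls of Bmp3, Dkk3 and Hes1 ended with T1 replicate 3 placed in T2 or after quantile normalization. The Mfng call ended after quantile normalization.

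MicroRNA genes fell far more often than they rose. MicroRNAs are short RNAs that pair with messenger RNAs, mainly through bases 2 to 8 from their 5′ end, the seed. Of 363 microRNA genes 67 fell (18.5%, against 4.93% of all genes) and 3 rose (0.8%, against 6.28%). Most of the class lay at background: 236 were dim on all newborn arrays and 277 on all youth arrays. The sources used here do not say whether the labelled RNA was the mature form, its hairpin or a longer transcript, so the values below belong to the microRNA gene's probe set. A block of 53 such genes lies between Dlk1 and Dio3 on rat chromosome 6, a region that is imprinted in mammals. Of the block 40 fell and none rose, again on the arrays where the muscle and tendon lists were lower. Some of the 40 were dim on all 6 arrays and are named below. The other 310 gave 27 that fell (8.7%) and 3 that rose (1.0%), and 217 of them were dim on all newborn arrays. The mature sequences below come from RefSeq (GRCr8), with the seed in capitals. They are the arms of the 4 microRNA genes of the block with the largest falls.
rno-miR-539-5p: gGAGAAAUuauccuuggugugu
rno-miR-539-3p: cAUACAAGgguaauuucuuuuc
rno-miR-493-5p: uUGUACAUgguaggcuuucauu
rno-miR-493-3p: uGAAGGUCuacugugugccag
rno-miR-377-5p: aGAGGUUGcccuuggugaauuc
rno-miR-377-3p: uGAAUCACacaaaggcaacuuuu
rno-miR-380-5p: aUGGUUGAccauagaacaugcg
rno-miR-380-3p: uAUGUAGUaugguccacaucu

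Mir539 was at 2.34, 2.41 and 2.43 in youth, against 6.93, 7.08 and 7.04 in newborn cartilage (log2 change -4.62, SE 0.18, limma adjusted p = 5.27e-09). Mir493 was at 3.0, 3.16 and 2.94 in youth, against 7.40, 7.68 and 7.48 in newborn cartilage (log2 change -4.49, SE 0.18, limma adjusted p = 5.27e-09). Mir377 was at 2.27, 2.51 and 2.19 in youth, against 5.94, 6.52 and 6.46 in newborn cartilage (log2 change -3.98, SE 0.22, limma adjusted p = 1.22e-07), and Mir380 at 2.34, 2.98 and 2.44 in youth, against 6.44, 6.63 and 6.50 in newborn cartilage (log2 change -3.94, SE 0.48, limma adjusted p = 0.000108). Each was above the background bound in newborn cartilage and dim on all 3 youth arrays. Over the block, 45 of 53 genes were dim on all youth arrays and 19 on all newborn arrays, and the median change was -1.89. The genes sit in 2 groups. The group nearer to Dlk1 (13 genes, 105.6 to 138.8 kb from its start) had 9 falls and a median of -2.18. The farther group (40 genes, 351.0 to 387.3 kb) had 31 falls and a median of -1.76. Of the 13 genes without a call 10 were dim on all newborn arrays, and their changes ran from -1.11 to 0.11. Among those called, Mir299, Mir3579, Mir495, Mir667, Mir381, Mir3576, Mir3592, Mir412 and Mir369 were dim on all 6 arrays. Their changes lie within the background range. In all, 6 pairs of called microRNA genes overlap, of which Mir214 with Mir3120 and Mir3074 with Mir24-1 lie outside the block. Among the pairs in the block, Mir3576 and Mir3579 lie on the minus strand, and their partners Mir539 and Mir380 on the plus strand. Whether the probe sets of a pair measure the locus separately was not tested. The long non-coding gene Meg3, known from the same imprinted region, stood at -0.36 (SE 0.25, limma adjusted p = 0.597).

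**Figure D3:**
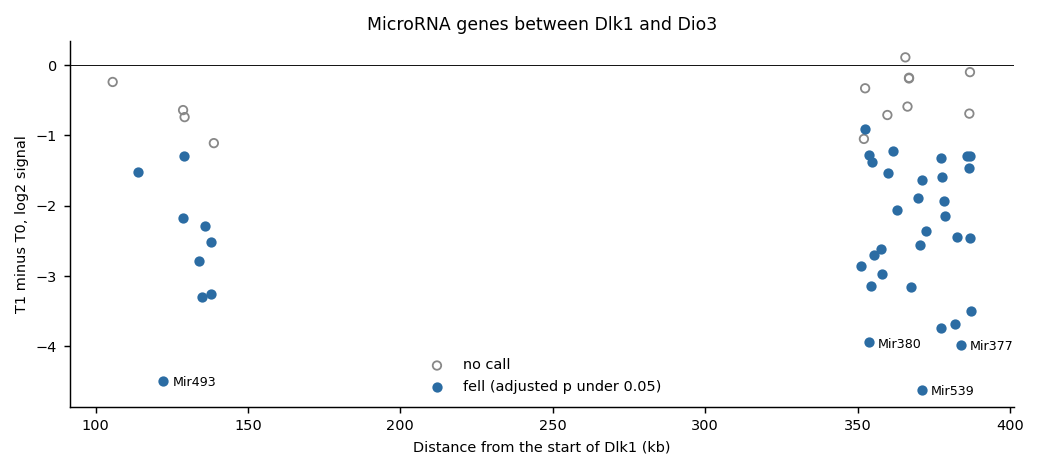
Change from newborn (T0) to youth (T1) of the 53 microRNA genes between Dlk1 and Dio3, by distance from the start of Dlk1. Filled points passed the test, among them genes that were dim on all 6 arrays. The 40 that fell lie in both groups, with Mir493 in the nearer and Mir539 in the farther one.

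Seeds were shared by few of the 70 microRNA genes called. The 124 mature sequences of these genes held 5 seeds that occur in more than 1 gene, over 12 genes in all. The arms that share a seed across genes outside the block are shown, since they show the same seed in genes at more than 1 locus.
rno-miR-23b-3p: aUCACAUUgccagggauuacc
rno-miR-23a-3p: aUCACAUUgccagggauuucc
rno-miR-27b-3p: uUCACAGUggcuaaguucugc
rno-miR-27a-3p: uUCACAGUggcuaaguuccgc
rno-let-7c-5p: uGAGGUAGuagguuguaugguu
rno-let-7d-5p: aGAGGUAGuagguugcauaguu
rno-let-7f-5p: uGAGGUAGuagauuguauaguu
Mir27b and Mir23b lie beside each other on chromosome 17, and Mir27a and Mir23a on chromosome 19. Mir27b was at 4.47, 4.69 and 5.27 in youth, against 7.58, 7.39 and 7.06 in newborn cartilage (log2 change -2.53, SE 0.31, limma adjusted p = 0.000107). Mir23b was at 4.99, 5.38 and 5.23 in youth, against 7.05, 7.17 and 6.54 in newborn cartilage (log2 change -1.72, SE 0.26, limma adjusted p = 0.000574). Mir27a changed by -1.76 (SE 0.37) and Mir23a by -1.47 (SE 0.32), both dim on all youth arrays. The 3 let-7 genes were dim on all 6 arrays, so their changes of -1.88 for Mirlet7f-1os, -1.26 for Mirlet7d and -1.17 for Mirlet7c1 lie within the background range. The Mirlet7c1 call was lost when T0 replicate 1, T0 replicate 2 or T1 replicate 1 was left out (adjusted p between 0.108 and 0.124). The Mirlet7d call was lost when T0 replicate 1, T1 replicate 1, T1 replicate 2 or T1 replicate 3 was left out (adjusted p between 0.0739 and 0.113). The Mir23a call was lost when T0 replicate 1, T0 replicate 2 or T1 replicate 1 was left out (adjusted p between 0.056 and 0.062). The Mirlet7d call ended with T1 replicate 3 placed in T2. The Mirlet7c1 call ended in a fit to the 6 arrays alone or after quantile normalization.

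Some tissue-restricted microRNA genes were also called. They are shown because each is known from 1 of the tissues described here.
rno-miR-140-5p: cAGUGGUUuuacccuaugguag
rno-miR-140-3p: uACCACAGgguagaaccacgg
rno-miR-133b-3p: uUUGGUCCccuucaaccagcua
rno-miR-223-3p: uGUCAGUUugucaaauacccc
Mir140, whose microRNA is known from cartilage, was at 4.22, 4.96 and 4.84 in youth, against 7.01, 7.61 and 7.66 in newborn cartilage (log2 change -2.76, SE 0.26, limma adjusted p = 1.02e-05). Mir133b, known from skeletal muscle, was at 4.04, 4.39 and 3.30 in youth, against 6.55, 7.11 and 5.41 in newborn cartilage (log2 change -2.45, SE 0.39, limma adjusted p = 0.000946). Mir223, known from granulocytes, was at 5.72, 5.41 and 5.23 in youth, against 3.61, 2.71 and 3.72 in newborn cartilage (log2 change 2.10, SE 0.48, limma adjusted p = 0.0127). Mir133b was dim on all youth arrays and Mir223 on all newborn arrays. The other 2 that rose were Mir1224 (log2 change 3.43, SE 0.60, limma adjusted p = 0.00196) and Mir219a1 (log2 change 1.07, SE 0.28, limma adjusted p = 0.0265). On the X chromosome the close neighbours Mir322, Mir503, Mir351, Mir542 and Mir450a1 were all called as lower. Mir351 was above the bound on all 6 arrays and fell by 1.19 on the log2 scale. Mir503 and Mir542 were dim on all youth arrays, so their falls of 1.22 and 1.71 reach background. Mir322 and Mir450a1 were dim on all 6 arrays, so that their changes of -1.17 and -2.52 lie within the background range. The Mir219a1 call was lost when T0 replicate 1, T0 replicate 3, T1 replicate 2 or T1 replicate 3 was left out (adjusted p between 0.086 and 0.133). The Mir223 call was lost when T0 replicate 2 or T1 replicate 1 was left out (adjusted p between 0.0602 and 0.0781). The Mir351 call was lost when any single array other than T0 replicate 1 was left out (adjusted p between 0.102 and 0.199). The Mir503 call was lost when T0 replicate 2 or T1 replicate 3 was left out (adjusted p between 0.065 and 0.0682). The calls of Mir223 and Mir503 ended with T1 replicate 3 placed in T2. The calls of Mir219a1 and Mir351 ended with T1 replicate 3 placed in T2 or after quantile normalization.

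Skeletal muscle genes were present in newborn cartilage and lower in the youth. In bulk tissue a change of this kind can come from fewer cells of a type or from less RNA per cell, and the arrays cannot tell these apart; the same holds for every cell type below. Myosin and thick filament genes fell in 7 of 11 cases and 1 rose, thin filament and Z-disc genes fell in 18 of 21, calcium handling and metabolism genes fell in 15 of 17 and 1 rose, and myogenic factors and acetylcholine receptor subunits fell in 11 of 14. The summed signal of the thin filament list ran from 3420 to 6300 in youth and 16400 to 24500 in newborn cartilage. Myh8, the perinatal myosin heavy chain, was at 3.62, 4.02 and 3.74 in youth, against 11.47, 11.74 and 11.33 in newborn cartilage (log2 change -7.72, SE 0.20, limma adjusted p = 5.26e-11). It was dim on all youth arrays. Csrp3, a Z-disc protein, was at 7.98, 7.74 and 5.83 in youth, against 11.22, 11.53 and 10.50 in newborn cartilage (log2 change -3.90, SE 0.45, limma adjusted p = 7e-05). Casq2, a calcium store protein, was at 6.49, 5.75 and 5.37 in youth, against 10.92, 11.10 and 10.70 in newborn cartilage, and Sln, a regulator of the calcium pump, at 6.10, 5.80 and 4.66 in youth, against 10.53, 10.84 and 9.90 in newborn cartilage. T1 replicate 3 was the lowest array of the youth group for Csrp3, Casq2 and Sln. Among proteins of the sarcomere's M-band, Myom2 fell by 3.02 (SE 0.30) and Myom1 by 2.34 (SE 0.32). The metabolic enzymes Pgam2 and Eno3 of muscle glycolysis fell by 2.33 (SE 0.32) and 2.18 (SE 0.28). The Eno3 call ended with T1 replicate 3 placed in T2.

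Several muscle genes reached background in the youth. The acetylcholine receptor subunits Chrna1 (log2 change -3.07, SE 0.25, limma adjusted p = 3.14e-06), Chrnd (log2 change -2.93, SE 0.28, limma adjusted p = 1.07e-05) and Chrnb1 (log2 change -2.29, SE 0.23, limma adjusted p = 2.06e-05) and the fusion protein Mymk (log2 change -3.21, SE 0.28, limma adjusted p = 5.6e-06) were dim on all youth arrays. The differentiation factors Myf6 and Myog fell by 2.22 (SE 0.29) and 1.91 (SE 0.29) on the log2 scale. Dim on all youth arrays as well was Tnnt2, the troponin T of heart and of fetal skeletal muscle, with 4.70, 4.80 and 4.73 in youth, against 8.93, 8.64 and 8.26 in newborn cartilage (log2 change -3.87, SE 0.24, limma adjusted p = 2.75e-07). Mybpc1, a myosin-binding protein, was at 7.75, 8.35 and 6.91 in youth, against 11.01, 11.24 and 10.53 in newborn cartilage (log2 change -3.25, SE 0.38, limma adjusted p = 7.75e-05). Myl11, a fast myosin light chain, was at 8.90, 9.11 and 8.57 in youth, against 11.93, 11.93 and 11.57 in newborn cartilage (log2 change -2.95, SE 0.57, limma adjusted p = 0.00399). Pvalb and Mybpc2, known from fast muscle fibres, went against the rest. Pvalb, a calcium buffer, was at 7.79, 7.47 and 6.95 in youth, against 4.74, 4.48 and 4.44 in newborn cartilage (log2 change 2.85, SE 0.33, limma adjusted p = 7.46e-05), dim on all newborn arrays. Mybpc2, a myosin-binding protein, was at 7.13, 7.33 and 7.03 in youth, against 6.30, 6.21 and 5.88 in newborn cartilage (log2 change 1.03, SE 0.21, limma adjusted p = 0.0061). With T1 replicate 3 placed in T2, thin filament calls numbered 11, myosin calls 4 and calcium and metabolism calls 4. Probe sets shared by several myosin heavy chain genes were not named. The Myl11 call ended with T1 replicate 3 placed in T2. The Mybpc2 call ended with T1 replicate 3 placed in T2 or after quantile normalization.

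Tendon genes fell as well, and few genes of vessels and nerves were called. Of 10 tendon and ligament genes none rose and 6 fell, and all 10 changes were negative (median -1.28). Tnmd, tenomodulin, a membrane protein of tendon cells, was at 7.79, 7.91 and 6.29 in youth, against 9.99, 9.92 and 10.01 in newborn cartilage (log2 change -2.64, SE 0.38, limma adjusted p = 0.000406), lowest on T1 replicate 3. The list shares Kera, Col14a1, Thbs4 and Egr1 with lists above and below. Of 12 smooth muscle and pericyte genes 3 fell, Des (log2 change -3.07, SE 0.33, limma adjusted p = 4.18e-05), an intermediate filament also made in skeletal muscle, Tagln (log2 change -1.51, SE 0.35, limma adjusted p = 0.0134) and Mcam (log2 change -1.17, SE 0.31, limma adjusted p = 0.0294). The last pair lost their calls, Tagln when T0 replicate 3, T1 replicate 2 or T1 replicate 3 was left out (adjusted p between 0.053 and 0.0809) and Mcam when any single array of the 6 was left out (adjusted p between 0.0513 and 0.127). Of 12 endothelial genes limma called 0, and a fit to the 6 arrays alone called 1. Cdh5, the cadherin of vessel walls, was at 8.67, 8.58 and 8.48 in youth, against 9.37, 9.37 and 8.88 in newborn cartilage (log2 change -0.64, SE 0.31, limma adjusted p = 0.339). Of 10 nerve and Schwann cell genes 1 rose and 1 fell, Mbp, a myelin protein, at 1.41 (SE 0.25) and the adhesion molecule Ncam1 at -1.40 (SE 0.28). The Tagln call ended with T1 replicate 3 placed in T2. The Mcam call ended with T1 replicate 3 placed in T2 or after quantile normalization.

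Erythroid genes rose almost throughout. Of 23 measured members 20 rose and none fell (median 2.85), and 7 were dim on all newborn arrays. Their summed signal ran from 26300 to 30200 in youth and 2370 to 4510 in newborn cartilage. Ahsp, which stabilises alpha-globin, was at 10.90, 10.57 and 10.84 in youth, against 6.42, 5.05 and 4.92 in newborn cartilage (log2 change 5.30, SE 0.69, limma adjusted p = 0.000199). Rhd, a Rhesus blood group protein, was at 9.97, 9.90 and 9.53 in youth, against 5.52, 4.52 and 4.87 in newborn cartilage (log2 change 4.83, SE 0.36, limma adjusted p = 1.72e-06). Klf1, the erythroid master factor, was at 7.36, 7.51 and 7.43 in youth, against 4.75, 4.98 and 4.78 in newborn cartilage (log2 change 2.60, SE 0.21, limma adjusted p = 3.17e-06). Trim10, known from late red cell precursors, was at 7.17, 7.56 and 7.27 in youth, against 4.25, 3.91 and 4.27 in newborn cartilage (log2 change 3.19, SE 0.24, limma adjusted p = 1.67e-06), dim on all newborn arrays. T0 replicate 1 was the highest newborn array for Ahsp, Rhd, Slc4a1, Hemgn and Car1. Car2, a carbonic anhydrase of red cells and osteoclasts, was at 11.55, 11.36 and 11.23 in youth, against 7.29, 6.15 and 6.88 in newborn cartilage (log2 change 4.61, SE 0.68, limma adjusted p = 0.000503). Genes of haem synthesis and iron rose in 10 of 18 cases. Slc25a37, the mitochondrial iron importer, was at 9.57, 9.14 and 9.58 in youth, against 5.25, 5.20 and 5.45 in newborn cartilage (log2 change 4.13, SE 0.37, limma adjusted p = 6.92e-06). The synthesis enzymes Cpox (log2 change 3.21, SE 0.44, limma adjusted p = 0.000311), Urod (log2 change 2.07, SE 0.28, limma adjusted p = 0.000254), Uros (log2 change 1.99, SE 0.25, limma adjusted p = 0.000144) and Alad (log2 change 1.93, SE 0.27, limma adjusted p = 0.000392) and the haem-degrading reductase Blvrb (log2 change 2.90, SE 0.20, limma adjusted p = 9.65e-07) rose with it.

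The promoters of the 3 erythroid genes with the smallest p were read for a GATA motif, since GATA1 drives red cell genes. The window was 250 bases before to 50 after the RefSeq start, and AGATAA was searched on both strands. It was present in 5 of 18 erythroid promoters in the table (27.8%) and in 11.3% of all 27457 promoters. Klf1 had no match in this window. Stretches of the other pair are shown with the match in capitals, Trim10 at chr20:1703555-1703644 on the minus strand and Rhd at chr5:152371088-152371177 on the plus strand (GRCr8).
Trim10: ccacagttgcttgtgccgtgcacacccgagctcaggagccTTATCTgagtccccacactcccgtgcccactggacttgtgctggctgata
Rhd: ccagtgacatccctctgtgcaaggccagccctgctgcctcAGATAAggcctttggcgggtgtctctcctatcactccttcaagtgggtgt
The match in Trim10 is the reverse complement. A match describes letters in the window and not a bound site.

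Platelet and granulocyte genes rose too. All 9 megakaryocyte and platelet genes had a positive change and 8 passed the test (median 2.65). Ppbp, a platelet chemokine, was at 9.22, 8.93 and 9.42 in youth, against 4.77, 4.68 and 4.83 in newborn cartilage (log2 change 4.43, SE 0.48, limma adjusted p = 4.03e-05). Gp9, a subunit of the von Willebrand factor receptor, was at 7.62, 7.57 and 7.54 in youth, against 4.91, 4.81 and 4.60 in newborn cartilage (log2 change 2.80, SE 0.27, limma adjusted p = 1.59e-05). Both were dim on all newborn arrays. Primary granule and defensin genes rose in 10 of 17 cases. Elane, neutrophil elastase, was at 8.89, 9.16 and 9.46 in youth, against 5.29, 5.02 and 4.68 in newborn cartilage, Prtn3, proteinase 3, at 8.05, 7.93 and 8.43 in youth, against 5.06, 4.37 and 4.80 in newborn cartilage, and Ctsg, cathepsin G, at 8.08, 8.26 and 8.53 in youth, against 4.90, 4.78 and 4.43 in newborn cartilage. Ctsg was dim on all newborn arrays. Mpo, myeloperoxidase, rose by 5.17 (SE 0.64). The youth arrays were all above the newborn arrays for the 3 proteases, with changes of 4.17 (SE 0.49, limma adjusted p = 8.94e-05), 3.39 (SE 0.36, limma adjusted p = 3.45e-05) and 3.59 (SE 0.48, limma adjusted p = 0.000222). The alpha-defensin genes are near-identical copies, so signals of Defa5 (log2 change 6.89, SE 0.75, limma adjusted p = 4.38e-05) and Defa11 (log2 change 5.35, SE 0.52, limma adjusted p = 1.41e-05) may include their relatives. Mature neutrophil and secondary granule genes rose in 13 of 20 cases (median 2.16), and in 8 with T1 replicate 3 placed in T2. Ngp, a secondary granule protein, was at 10.43, 10.11 and 10.93 in youth, against 7.27, 4.93 and 6.56 in newborn cartilage (log2 change 4.24, SE 0.88, limma adjusted p = 0.00647). Cxcr2, the receptor that draws neutrophils, was at 7.12, 6.63 and 7.01 in youth, against 4.40, 3.63 and 4.77 in newborn cartilage (log2 change 2.65, SE 0.38, limma adjusted p = 0.000392). T0 replicate 2 was the lowest newborn array for Ngp and Cxcr2, and Cxcr2 was dim on all newborn arrays.

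B cell genes rose in 18 of 21 cases, and all 21 changes were positive (median 2.90). The summed signal ran from 6850 to 7330 in youth and 1550 to 1700 in newborn cartilage. Rag1, which cuts antigen receptor genes in precursor cells, was at 7.66, 7.75 and 7.64 in youth, against 5.22, 4.70 and 4.32 in newborn cartilage (log2 change 2.94, SE 0.26, limma adjusted p = 6.92e-06). Vpreb3, a protein of pre-B cells, was at 8.20, 7.19 and 7.09 in youth, against 3.74, 2.71 and 3.45 in newborn cartilage (log2 change 4.19, SE 0.34, limma adjusted p = 3.14e-06). Blnk, a signalling adaptor, was at 8.37, 8.33 and 8.47 in youth, against 4.96, 4.24 and 5.24 in newborn cartilage (log2 change 3.58, SE 0.24, limma adjusted p = 5.54e-07), and Spib, a transcription factor, at 7.84, 8.04 and 8.05 in youth, against 4.61, 3.46 and 4.54 in newborn cartilage (log2 change 3.78, SE 0.33, limma adjusted p = 6.92e-06). Jchain, which joins antibody subunits in plasma cells, was at 9.05, 9.23 and 8.66 in youth, against 4.17, 3.92 and 4.25 in newborn cartilage (log2 change 4.87, SE 0.66, limma adjusted p = 0.00027). The surface antigens Ms4a1, CD20, and Cd79b of the B cell receptor rose by 3.45 (SE 0.25) and 3.44 (SE 0.29). Vpreb3, Spib and Jchain were dim on all newborn arrays. Of 48 immunoglobulin and T cell receptor V segments 10 rose and none fell. T and cytotoxic cell genes rose in 5 of 19 cases, and 12 were dim on all newborn arrays. Nkg7, a granule protein of cytotoxic cells, was at 8.64, 8.61 and 8.85 in youth, against 5.26, 4.29 and 4.77 in newborn cartilage (log2 change 3.93, SE 0.44, limma adjusted p = 5.95e-05). Cd3g, part of the T cell receptor, was at 5.84, 5.35 and 5.50 in youth, against 3.82, 3.67 and 3.97 in newborn cartilage (log2 change 1.74, SE 0.23, limma adjusted p = 0.000192), dim on all newborn arrays. Haematopoietic stem and progenitor genes rose in 11 of 15 cases, with Tal1, an early blood factor, at 2.52 (SE 0.32), Flt3, a progenitor receptor, at 1.59 (SE 0.24) and Ptprc, the pan-leukocyte gene CD45, at 3.03 (SE 0.58). That count was 5 without T0 replicate 2, 6 without T1 replicate 1, 7 without T1 replicate 2 and 5 without T1 replicate 3, 5 after quantile normalization and 6 with T1 replicate 3 placed in T2. Of these genes Tal1, Flt3 and Ptprc kept their calls in every alternative.

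Macrophage and mast cell genes split by gene. Of 16 macrophage genes 3 rose and 1 fell. Cd68, a lysosomal protein of macrophages, was at 8.09, 8.22 and 8.39 in youth, against 6.68, 5.86 and 6.78 in newborn cartilage (log2 change 1.79, SE 0.28, limma adjusted p = 0.000896). Adgre1, the F4/80 antigen of mouse, rose (log2 change 1.33, SE 0.19, limma adjusted p = 0.00038), and Lyz2, lysozyme, which granulocytes also make, stood at 2.95 (SE 0.68). Lyve1, found on resident macrophages and lymphatic vessels, went the other way with 7.0, 7.01 and 6.85 in youth, against 8.98, 8.39 and 8.63 in newborn cartilage (log2 change -1.72, SE 0.33, limma adjusted p = 0.00363). Among 14 mast cell and basophil genes the proteases Mcpt9 (log2 change 4.21, SE 0.62, limma adjusted p = 0.000515) and Mcpt10 (log2 change 2.41, SE 0.41, limma adjusted p = 0.00156) rose, although Mcpt10 was dim on all 6 arrays. By contrast Cpa3, a carboxypeptidase of connective tissue mast cells, was at 5.67, 5.56 and 4.85 in youth, against 7.01, 6.68 and 6.86 in newborn cartilage (log2 change -1.48, SE 0.29, limma adjusted p = 0.00479). Tpsab1, a tryptase, also fell, by 1.48 on the log2 scale (SE 0.38), a call lost when any single array of the 6 was left out (adjusted p between 0.0686 and 0.1). Of 11 MHC class II genes 6 rose, and 3 after quantile normalization. Cd74, the invariant chain that escorts class II molecules, was at 10.73, 11.10 and 10.97 in youth, against 7.93, 7.13 and 7.48 in newborn cartilage (log2 change 3.42, SE 0.51, limma adjusted p = 0.000549). RT1-Da was at 8.18, 8.23 and 8.19 in youth, against 6.13, 5.52 and 5.78 in newborn cartilage (log2 change 2.39, SE 0.36, limma adjusted p = 0.000622); the RT1 genes are related copies that could share probes. The Lyz2 call was lost when T0 replicate 2 or T1 replicate 3 was left out (adjusted p between 0.0555 and 0.0733). The Cpa3 call ended with T1 replicate 3 placed in T2. The Tpsab1 call ended with T1 replicate 3 placed in T2 or after quantile normalization.

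Some bone genes rose. Of 15 osteoblast and osteocyte genes 6 rose, 9 were not called and none fell (median 0.92), and 3 rose with T1 replicate 3 placed in T2. Their summed signal ran from 16100 to 18500 in youth and 10300 to 14700 in newborn cartilage. Dmp1, an acidic matrix protein of osteocytes, was at 9.29, 9.71 and 9.55 in youth, against 5.91, 5.07 and 7.22 in newborn cartilage (log2 change 3.45, SE 0.50, limma adjusted p = 0.000458). Bglap, osteocalcin, was at 9.27, 9.93 and 10.02 in youth, against 6.95, 6.28 and 7.04 in newborn cartilage (log2 change 2.98, SE 0.35, limma adjusted p = 7.63e-05). Phex, an osteocyte protease that controls phosphate, was at 8.83, 9.37 and 9.01 in youth, against 7.29, 6.23 and 7.65 in newborn cartilage (log2 change 2.02, SE 0.41, limma adjusted p = 0.00542). Mepe, a mineral-binding matrix protein of osteocytes, rose by 2.47 (SE 0.30). T0 replicate 3 was the highest newborn array for Dmp1, Bglap and Phex, and T0 replicate 2 the lowest. Osteoclast genes, whose cells resorb bone and calcified cartilage, had a positive change in all 10 members, of which 4 rose, a number that was 0 without T0 replicate 2. Atp6v0d2, a proton pump subunit, was at 7.75, 8.23 and 7.84 in youth, against 6.27, 4.32 and 6.39 in newborn cartilage (log2 change 2.28, SE 0.53, limma adjusted p = 0.0143); T0 replicate 2 stood far below the other newborn arrays and the call was lost when T0 replicate 2 or T1 replicate 2 was left out (adjusted p between 0.0641 and 0.0665). The osteoclast count was also 2 without T1 replicate 2 and 1 without T1 replicate 3, and 8 in a fit to the 6 arrays alone. The Phex call ended with T1 replicate 3 placed in T2.

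Fat cell genes rose in 8 of 19 cases and 1 fell. Adipoq, the hormone adiponectin of fat cells, was at 7.16, 7.68 and 7.68 in youth, against 4.22, 4.34 and 4.36 in newborn cartilage (log2 change 3.20, SE 0.30, limma adjusted p = 9.54e-06). Pparg, the factor that drives fat cell formation, was at 6.64, 6.82 and 6.50 in youth, against 5.24, 5.14 and 5.39 in newborn cartilage (log2 change 1.40, SE 0.20, limma adjusted p = 0.000476). Cfd, adipsin, was at 7.92, 8.15 and 8.45 in youth, against 5.39, 5.62 and 5.25 in newborn cartilage (log2 change 2.76, SE 0.36, limma adjusted p = 0.000203), and Thrsp, a lipogenic protein, at 6.84, 7.44 and 7.55 in youth, against 5.04, 4.91 and 4.20 in newborn cartilage (log2 change 2.56, SE 0.32, limma adjusted p = 0.000141). Cidea, a lipid droplet protein known from brown fat, fell with 7.04, 7.51 and 6.74 in youth, against 8.75, 9.08 and 8.86 in newborn cartilage (log2 change -1.80, SE 0.26, limma adjusted p = 0.00038). Each of these 5 genes kept its call in every alternative run. Adipoq was dim on all newborn arrays.

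Interferon-stimulated genes, which cells switch on when they sense interferon or viral nucleic acid, had a positive change in all 37 members. Of these 29 rose (median 1.85), 19 without T1 replicate 3, and 16 were dim on all newborn arrays. The mean of the list lay at 6.64 to 7.34 on the youth arrays and 4.85 to 4.92 on the newborn arrays. Rsad2, viperin, was at 10.70, 10.48 and 10.62 in youth, against 5.41, 4.97 and 4.71 in newborn cartilage (log2 change 5.57, SE 0.68, limma adjusted p = 0.000109). Cmpk2, its neighbour on chromosome 6, was at 8.89, 8.14 and 8.79 in youth, against 5.58, 5.61 and 5.0 in newborn cartilage (log2 change 3.21, SE 0.37, limma adjusted p = 7.82e-05). Irf7, which amplifies interferon production, was at 9.46, 8.44 and 9.72 in youth, against 4.75, 5.05 and 4.59 in newborn cartilage (log2 change 4.41, SE 0.58, limma adjusted p = 0.000206), and Psmb8, an immunoproteasome subunit, at 8.07, 7.74 and 8.02 in youth, against 4.49, 5.47 and 5.65 in newborn cartilage (log2 change 2.74, SE 0.37, limma adjusted p = 0.00025). Ifit1, which binds viral RNA, varied widely among youth arrays, at 9.57, 4.53 and 10.38, against 3.85, 3.66 and 3.28 in newborn cartilage (log2 change 4.56, SE 1.17, limma adjusted p = 0.0255). It was dim on T1 replicate 2 and on all newborn arrays. T1 replicate 2 was low for Ifit1, Irf7 and Isg15, and the Ifit1 call was lost when any single array other than T1 replicate 2 was left out (adjusted p between 0.0687 and 0.14). The B cell list had a mean of 7.89 to 7.92 on the youth arrays and 5.07 to 5.39 on the newborn arrays, the macrophage list 7.02 to 7.23 and 6.47 to 6.74, and their part in the interferon result was not tested. The Ifit1 call ended with T1 replicate 3 placed in T2, in a fit to the 6 arrays alone or after quantile normalization.

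Promoters of interferon-stimulated genes often hold an element to which interferon-activated factors bind. Its core GAAANNGAA was searched on both strands of the same windows as above. It was found in 18 of 26 promoters of list members (69.2%) and in 9.5% of all promoters. Of the 21 members with a promoter that rose 13 held it, a smaller share than among all list members. Among the 3 genes with the smallest p, Ifi47, an interferon-induced GTPase, had no match. The other pair are shown with the match, a reverse complement in both, in capitals: Cmpk2 at chr6:48802719-48802808 on the plus strand and Rsad2 at chr6:48788217-48788306 on the minus strand (GRCr8).
Cmpk2: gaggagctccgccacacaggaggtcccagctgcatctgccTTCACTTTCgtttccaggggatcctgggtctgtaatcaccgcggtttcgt
Rsad2: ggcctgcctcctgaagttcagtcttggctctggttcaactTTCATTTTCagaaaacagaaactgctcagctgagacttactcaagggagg

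Inflammatory lists gave fewer calls. Of 21 inflammatory mediators 7 rose and none fell, a count that was 3 without T0 replicate 2, 3 without T0 replicate 3, 3 without T1 replicate 1, 4 without T1 replicate 2 and 3 without T1 replicate 3. Alox15, a lipoxygenase, was at 11.93, 11.96 and 11.95 in youth, against 6.53, 5.85 and 6.09 in newborn cartilage (log2 change 5.79, SE 0.55, limma adjusted p = 1.24e-05). Il1rn, the interleukin-1 receptor antagonist, was at 5.31, 5.01 and 5.62 in youth, against 3.05, 3.40 and 3.23 in newborn cartilage (log2 change 2.09, SE 0.30, limma adjusted p = 0.000429), dim on all newborn arrays. Of 18 complement genes 7 rose, and 4 without T0 replicate 2 and 4 without T1 replicate 3. C3, the central component, was at 8.32, 8.47 and 8.54 in youth, against 5.60, 4.83 and 5.15 in newborn cartilage (log2 change 3.26, SE 0.49, limma adjusted p = 0.000637), and C6 of the terminal pathway at 6.55, 6.76 and 6.74 in youth, against 4.83, 4.20 and 4.83 in newborn cartilage (log2 change 2.06, SE 0.36, limma adjusted p = 0.00204). C6 was dim on all newborn arrays. Of 32 chemokines and receptors 7 rose and 1 fell. Ccr2, a monocyte receptor, was at 7.73, 9.22 and 9.14 in youth, against 5.10, 4.43 and 5.49 in newborn cartilage (log2 change 3.69, SE 0.53, limma adjusted p = 0.000397), while Ccl2, a ligand of that receptor, was at 5.64, 5.49 and 5.41 in youth, against 6.81, 7.50 and 7.37 in newborn cartilage (log2 change -1.72, SE 0.30, limma adjusted p = 0.00194). Receptor and ligand thus moved in opposite directions. Cxcl14 rose with the smallest SE of this list's named genes (log2 change 1.27, SE 0.16, limma adjusted p = 0.000177).

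Cell division genes rose in the same samples. All 30 mitosis genes had a positive change and 17 rose (median 1.24); all 29 DNA replication genes had a positive change and 9 rose (median 0.83). A fit to the 6 arrays alone called 28 and 22. The replication count was 5 without T0 replicate 1, 3 without T0 replicate 2, 4 without T1 replicate 1, 4 without T1 replicate 2 and 5 without T1 replicate 3. Tpx2, a spindle assembly factor, was at 8.46, 8.23 and 8.27 in youth, against 6.32, 6.13 and 6.65 in newborn cartilage (log2 change 1.95, SE 0.25, limma adjusted p = 0.000196). Kif4a, a chromosome motor, was at 7.70, 7.58 and 7.61 in youth, against 6.21, 5.94 and 6.25 in newborn cartilage (log2 change 1.5, SE 0.23, limma adjusted p = 0.000682). Espl1, separase, was at 6.81, 6.69 and 6.47 in youth, against 5.23, 5.48 and 5.27 in newborn cartilage (log2 change 1.33, SE 0.20, limma adjusted p = 0.00069). Cdc6, which licenses replication origins, was at 7.26, 7.26 and 7.08 in youth, against 4.65, 5.03 and 5.23 in newborn cartilage (log2 change 2.23, SE 0.34, limma adjusted p = 0.000706). The youth arrays lay within 0.34 of each other for these 4 genes. Plk1, the kinase that starts mitosis, rose by 1.60 (SE 0.26), Cenpa, the histone that marks centromeres, by 1.19 (SE 0.19) and the motor Kif20a by 1.11 (SE 0.18). In the replication list Orc1 of the origin recognition complex rose by 0.96 (SE 0.18), Mcm10 by 1.10 (SE 0.24) and the licensing factor Cdt1 by 0.83 (SE 0.18). These genes take part in different phases of the cell cycle. The mean of the mitosis list lay at 7.84 to 8.06 on the youth arrays and 6.68 to 6.81 on the newborn arrays. For erythroid genes, whose precursor cells divide in marrow, it lay at 8.66 to 8.82 in youth and 5.42 to 5.92 in newborn cartilage. Their part in the rise of division genes was not tested. The Cdt1 call was lost when T1 replicate 1 was left out (adjusted p 0.0512). The Mcm10 call was lost when T0 replicate 2 was left out (adjusted p 0.0529).

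Inhibitors of the cell cycle were divided. Of 12 genes 3 rose and 2 fell. Cdkn1c, the imprinted inhibitor p57, was at 7.96, 7.41 and 7.47 in youth, against 9.30, 9.61 and 9.47 in newborn cartilage (log2 change -1.85, SE 0.23, limma adjusted p = 0.000121). Cdkn1a, p21, was at 6.05, 5.74 and 5.92 in youth, against 7.96, 7.64 and 7.37 in newborn cartilage (log2 change -1.76, SE 0.22, limma adjusted p = 0.000121). Rbl1 of the retinoblastoma family was at 7.93, 8.02 and 7.85 in youth, against 6.24, 6.33 and 6.79 in newborn cartilage (log2 change 1.48, SE 0.32, limma adjusted p = 0.00965), and Rb1, the retinoblastoma gene, at 9.47, 9.41 and 9.35 in youth, against 7.40, 7.64 and 7.52 in newborn cartilage (log2 change 1.88, SE 0.45, limma adjusted p = 0.0174). The Rb1 call was lost when any single array of the 6 was left out (adjusted p between 0.0528 and 0.0675) and that of Cdkn1b, p27, when any single array of the 6 was left out (adjusted p between 0.0643 and 0.121). The Cdkn1b call ended with T1 replicate 3 placed in T2 or with a trended and robust prior. The calls of Rbl1 and Rb1 ended after quantile normalization.

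Many mitotic genes carry a short promoter element, the cell cycle homology region, through which they are held down outside division. Its core TTTGAA was searched on both strands. It was found in 19 of 25 promoters of mitosis genes (76.0%) and in 18.1% of all promoters. Of the 15 with a promoter that rose 10 held it, a smaller share than among all list members. Tpx2 was first by p, but no promoter sequence was at hand for it, so it was not searched. Kif4a at chrX:69761796-69761885 on the plus strand and Espl1 at chr7:135302593-135302682 on the plus strand (GRCr8) came next and are shown, the match in capitals.
Kif4a: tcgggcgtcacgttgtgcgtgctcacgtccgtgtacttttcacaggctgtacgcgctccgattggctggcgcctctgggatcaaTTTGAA
Espl1: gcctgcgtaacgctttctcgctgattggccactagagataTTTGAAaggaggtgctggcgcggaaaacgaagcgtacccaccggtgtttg

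Most lists of general cell function gave few calls. Of 27 nuclear genes of the respiratory chain limma called 0, and 6 fell in a fit to the 6 arrays alone; 24 changes were negative (median -0.35). Of 22 glycolysis and hypoxia genes 1 rose and 1 fell, the glucose transporter Slc2a3 at 1.03 (SE 0.26) and the oxygen-dependent prolyl hydroxylase Egln3 at -1.07 (SE 0.30). Of 22 secretory pathway genes 1 fell, Creb3l2, a transcription factor of the secretory pathway, at -1.01 (SE 0.27). Each of these 3 counts was 0 without 1 of the newborn arrays. Antioxidant genes rose in 3 of 23 cases, 8 in a fit to the 6 arrays alone. Gpx3, a secreted glutathione peroxidase, was at 9.74, 10.01 and 10.29 in youth, against 8.03, 7.16 and 8.46 in newborn cartilage (log2 change 2.13, SE 0.35, limma adjusted p = 0.00124), and Gclm, a subunit of the enzyme that starts glutathione synthesis, at 8.93, 8.86 and 8.67 in youth, against 6.79, 7.03 and 6.52 in newborn cartilage (log2 change 2.04, SE 0.37, limma adjusted p = 0.00225). Mechanosensing and CCN genes fell in 5 of 17 cases, a count that was 2 without T0 replicate 2, 3 without T0 replicate 3 and 3 without T1 replicate 3, and 11 in a fit to the 6 arrays alone. Ankrd1, a target of the stretch-responsive YAP pathway that is also abundant in muscle, was at 4.96, 4.76 and 4.78 in youth, against 8.51, 8.23 and 7.06 in newborn cartilage (log2 change -3.10, SE 0.33, limma adjusted p = 3.05e-05). Trpv4, a calcium channel of chondrocytes, was at 6.95, 6.64 and 6.68 in youth, against 8.09, 7.93 and 7.77 in newborn cartilage (log2 change -1.18, SE 0.23, limma adjusted p = 0.00411). Immediate early genes fell in 2 of 20 cases, Jund at -0.88 (SE 0.22) and Egr1 at -0.90 (SE 0.26), and both calls ended when single arrays were left out, Jund when any single array other than T0 replicate 3 was left out (adjusted p between 0.0734 and 0.128) and Egr1 when any single array other than T1 replicate 2 was left out (adjusted p between 0.0887 and 0.215). The Creb3l2 call was lost when any single array other than T0 replicate 2 was left out (adjusted p between 0.0837 and 0.143). The Slc2a3 call was lost when T0 replicate 2, T0 replicate 3, T1 replicate 1 or T1 replicate 2 was left out (adjusted p between 0.0584 and 0.111). The Egln3 call was lost when any single array other than T0 replicate 3 was left out (adjusted p between 0.102 and 0.208). The Slc2a3 call ended with T1 replicate 3 placed in T2. The Egr1 call ended with T1 replicate 3 placed in T2, with median centring, in a fit to the arrays of T0, T1 and T2, after quantile normalization or with a trended and robust prior. The Egln3 call ended with T1 replicate 3 placed in T2, with median centring or after quantile normalization. The Jund call ended with T1 replicate 3 placed in T2, in a fit to the 6 arrays alone or after quantile normalization. The Creb3l2 call ended with T1 replicate 3 placed in T2 or after quantile normalization.

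Circadian clock genes fell in 6 of 17 cases and 1 rose, and no label states the time of day of sampling. Per1, a light-responsive repressor, was at 5.74, 5.88 and 6.60 in youth, against 9.01, 8.54 and 7.23 in newborn cartilage (log2 change -2.18, SE 0.36, limma adjusted p = 0.00135). Dbp, an output factor of the clock, was at 7.98, 9.15 and 8.77 in youth, against 7.0, 7.33 and 7.15 in newborn cartilage (log2 change 1.48, SE 0.29, limma adjusted p = 0.00487). Cry1 and Cry2, the cryptochrome repressors, stood at -1.04 (SE 0.26) and -1.06 (SE 0.27). T0 replicate 3 was the lowest newborn array for Per1, Cry1 and Cry2. The count of 6 was 2 without T0 replicate 1, 1 without T0 replicate 2, 3 without T1 replicate 1, 1 without T1 replicate 2 and 1 without T1 replicate 3, and 1 after quantile normalization or with T1 replicate 3 placed in T2. The Cry1 call was lost when any single array other than T0 replicate 3 was left out (adjusted p between 0.0703 and 0.12). The Cry2 call was lost when any single array other than T0 replicate 3 was left out (adjusted p between 0.053 and 0.114). The Dbp call ended with T1 replicate 3 placed in T2. The calls of Cry1 and Cry2 ended with T1 replicate 3 placed in T2 or after quantile normalization.

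Some genes outside these lists are given from the 25 largest rises and 25 largest falls. Among falls, Fndc3c1 was at 2.96, 3.54 and 3.49 in youth, against 8.62, 9.26 and 8.98 in newborn cartilage, Arhgap36 at 3.45, 3.91 and 4.23 in youth, against 8.95, 9.33 and 8.57 in newborn cartilage and Agtr2, an angiotensin receptor of fetal tissues, at 4.86, 4.51 and 3.98 in youth, against 9.36, 9.24 and 9.01 in newborn cartilage. Atp1b4, a sodium pump relative of perinatal muscle, was at 4.24, 4.14 and 4.40 in youth, against 7.71, 8.97 and 8.34 in newborn cartilage (log2 change -4.08, SE 0.32, limma adjusted p = 2.83e-06). Tceal7 was at 4.88, 4.59 and 3.55 in youth, against 8.64, 8.66 and 8.09 in newborn cartilage (log2 change -4.12, SE 0.37, limma adjusted p = 7.39e-06). Fndc3c1, Arhgap36 and Atp1b4 were dim on all youth arrays. Agtr2 and Tceal7 were dim on T1 replicates 2 and 3, and on T1 replicate 1 both lay close to the bound of 4.86. Among rises, Lgals5, a galectin of rat red cell precursors, was at 10.48, 10.62 and 10.76 in youth, against 6.74, 6.02 and 6.13 in newborn cartilage (log2 change 4.32, SE 0.33, limma adjusted p = 1.75e-06). Fcnb, a ficolin of myeloid cells, was at 10.47, 10.71 and 11.08 in youth, against 6.38, 6.06 and 6.49 in newborn cartilage (log2 change 4.45, SE 0.45, limma adjusted p = 2.02e-05), and Serpinb10, a serine protease inhibitor of marrow cells, at 7.78, 7.88 and 7.98 in youth, against 4.31, 2.64 and 2.96 in newborn cartilage (log2 change 4.58, SE 0.63, limma adjusted p = 0.000307). Serpinb10 was dim on all newborn arrays. Of 39 long non-coding RNA genes limma called 0, and 1 rose in a fit to the 6 arrays alone.

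The step to youth was then set against the step to adult, T2 minus T1, in the same fit. Both steps contain the T1 arrays, so the contrast (T1 minus T0) minus (T2 minus T1) was tested directly: 255 of 18166 genes differed (1.40%, limma adjusted p under 0.05). Erythroid genes were called in 13 of 23 cases and B cell genes in 13 of 21; the medians of these lists were 2.85 and 2.90 for the step to youth and -0.29 and 0.05 for the step to adult. The microRNA genes between Dlk1 and Dio3, with medians of -1.89 and -0.04, are not compared between the steps: 45 of 53 were dim on all youth arrays, so a further fall could not have been seen. Fat cell genes were called in 8 of 19 cases and osteoblast genes in 5 of 15. Adipoq changed by 3.20 to youth and by -2.44 to adult, a difference between the steps of 5.63 (SE 0.51, limma adjusted p = 0.000111). Pvalb changed by 2.85 and then by -3.48, a difference of 6.33 (SE 0.57, limma adjusted p = 0.000111). Sfrp5 changed by 2.37 and then by -1.41, a difference of 3.78 (SE 0.44, limma adjusted p = 0.000719). Col10a1 changed by 1.67 and then by -1.73, a difference of 3.40 (SE 0.65, limma adjusted p = 0.0219).

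Other lists had medians of the same sign at both steps. Of 21 thin filament genes 3 were called in this contrast, with a list median of -2.38 to youth and -2.23 to adult, where the list mean was 4.96 and the room for a larger fall small. For mature neutrophil genes the medians were 2.16 and 1.78, with none of 20 called in the contrast. Igf2 changed by -3.29 to youth and by -3.62 to adult, and Dlk1 by -3.75 and -0.83; the steps differed by 0.34 (SE 0.46, limma adjusted p = 1.0) for Igf2 and by -2.92 (SE 0.49, limma adjusted p = 0.00931) for Dlk1. Matn1 changed by -2.57 and -2.34, and the steps differed by -0.23 (SE 0.40, limma adjusted p = 1.0). Epyc, dim on 2 of 3 youth arrays, had no room for a second fall, so its steps are not compared. A p above the threshold does not show that the steps were alike.

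**Figure D4:**
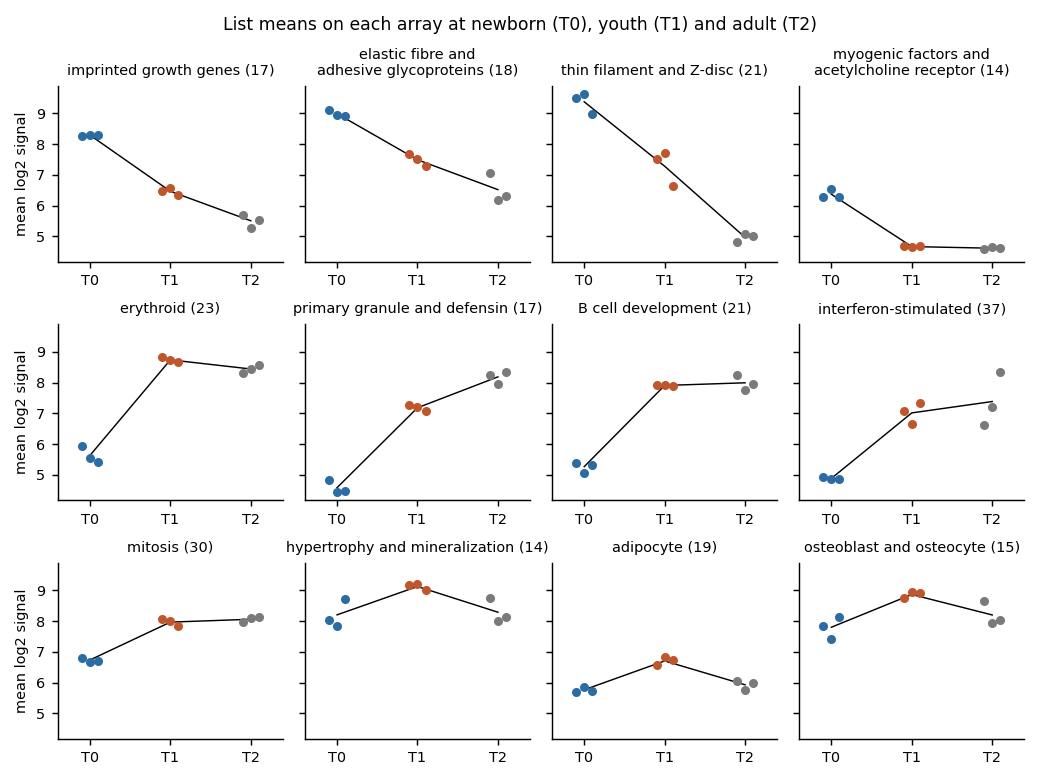
Mean log2 signal of 12 gene lists on each array of the newborn (T0), youth (T1) and adult (T2) stages, with the number of measured genes in parentheses and a line through the stage means. Erythroid, B cell and mitosis means are near level between T1 and T2, the thin filament mean falls at both steps, and the adipocyte and hypertrophy means are highest at T1.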

How the data were processed

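Articular cartilage RNA from 15 rats' right knees had been hybridised to Affymetrix RaGene 2.0 ST arrays, 3 per stage, after Trizol extraction and biotin labelling. Values are the authors' deposited log2 signals, made with RMA per the submitters' processing notes; the sources used here give no software version, library file or build. RMA subtracts background and forces arrays to 1 distribution before probes are summarised, so values near background are compressed and a shift of all genes cannot be seen. Arrays give no read depth, and their number limits the precision.

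With limma 3.58.1 (R 4.3.3) a mean per stage was fitted over the 15 arrays, and p-values were adjusted (Benjamini-Hochberg) over 36685 probe sets; a call needs an adjusted p under 0.05. The procedure was also run on simulated arrays with noise drawn independently for each probe set. That run says nothing of noise shared between genes. GEO's platform annotation gave 18511 probe sets 1 symbol, 575 several and 17599 none; of the first, 18394 matched the RefSeq table of GRCr8 by Entrez identifier. Each of 18166 genes was represented by its probe set with the highest mean. Members and lists were chosen with earlier results of these data known. The naming rule took, per list, up to 6 called genes with the smallest p, or the largest change where none was called. Over all genes it took the 25 largest rises and falls. It also took every called microRNA gene and the 6 largest changes each way among non-coding genes. Col2a1, Acan, Sox9, Prg4, Col10a1 and Mmp13 were always taken. The rule gave 346 genes, of which the text shows only a part. Other members appear in counts. Replicate numbers did not pair the stages: same-numbered deviations correlated at -0.025, -0.0382 and 0.0561. Alternatives changed the arrays fitted, the scaling, the filter, the prior, the array weights and the stage of T1 replicate 3.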

Additional observations from a re-analysis of the deposited data

How the results depend on the processing

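The number of probe sets called was 5358 (2701 rose, 2657 fell) with the 6 arrays alone, 5436 (2723 rose, 2713 fell) with the 9 arrays of T0 to T2, and 6852 (3327 rose, 3525 fell) with array weights. With T1 replicate 3 placed in T2 it was 1777 (958 rose, 819 fell), with T1 then left at 2 arrays. Leaving out single arrays gave 1796 to 2223 calls, 970 to 1164 rising and 826 to 1059 falling, with fewer samples in each fit. The replicate block gave 2529 calls (1357 rose, 1172 fell), but the shared numbers do not pair the animals. The remaining settings (quantile normalization 1939, median centring 2628, a dim-probe filter 2949, a trended robust prior 2845, no T4 arrays 3921) stayed within 1.5 times the main count. Of 336 called genes taken by the naming rule, 224 kept their call in all 16 alternatives. Another 13, all microRNA genes, kept it in the 15 in which they were tested, since the dim-probe filter left them out. None of the called genes changed direction. The medians of 2 lists changed sign, small leucine-rich proteoglycans (0.04 with quantile normalization against -0.27) and known long non-coding genes (-0.03 with the filter against 0.13); the cause was not tested. The share of calls that rose stayed between 48.6% and 54.6%. Levels below the olfactory receptor bound limit what can be said of weakly hybridising genes, microRNA genes above all.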

Other observations

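Probe sets without a gene symbol also changed: of 17599, 285 rose and 381 fell. The largest fall among them was in probe set 17818495, at 1.94, 4.33 and 3.23 in youth, against 9.28, 8.96 and 9.04 in newborn cartilage (log2 change -5.93, SE 0.50, limma adjusted p = 4.56e-06). Probe set 17641675 rose, at 10.27, 9.997 and 9.47 in youth, against 3.33, 3.17 and 3.67 in newborn cartilage (log2 change 6.52, SE 0.60, limma adjusted p = 9.36e-06). Neither is named here. These 2 were chosen after their values were seen.

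Ribosomal protein genes gave 2 rises and no fall among 126, with a negative change in 99 and a median of -0.16. The summed signal of the list was 89900 to 90700 in youth and 98600 to 100000 in newborn cartilage. Olfactory receptor genes, used to set the background bound, gave 2 rises and 3 falls among 1185.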
